A study of Mus musculus with 36 samples.

Results

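The network of dachshund (Dach), eyes absent (Eya) and sine oculis (Six3, Six4 and Six5) genes comprised 9 members, Dach1, Dach2, Eya1, Eya2, Eya3, Eya4, Six3, Six4 and Six5, of the 24421 genes listed in each of 2 count tables. The set was chosen by the measured change of Dach2 with Pogz genotype in these libraries, so differences between genotypes are given for its members as a description, with sizes, standard errors and counts of calls beside the share of all genes called but with no p, whereas tests are given for tissue, sex, departure from the midpoint between genotypes and genes outside the set. RNA-seq was made from hippocampus and cerebellum of the same 18 adult C57BL/6 mice, 6 of each genotype with 3 males among them. Controls carried floxed Pogz on both chromosomes and no Cre, cKO+/- mice carried Nes-Cre with 1 floxed allele, and cKO-/- mice carried Nes-Cre with both alleles floxed. Nestin-driven Cre removes the end of Pogz in the central and peripheral nervous system, so cells of other origins in the tissue keep it. Each mouse is named by its label (Sample_933, for example), which its libraries from both tissues share. All mutants and no controls carried Cre, so Cre and the deletion cannot be told apart in comparisons with controls, while cKO+/- and cKO-/- mice both carried Cre and differed in the alleles deleted.

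The products of these genes form a transcriptional network that was first worked out in the Drosophila eye and is used again in the development of eye, ear, muscle, kidney and brain. Sine oculis proteins are homeodomain factors that bind DNA, Eya proteins are co-activators that are also phosphatases, and Dach proteins are nuclear cofactors of the Ski family that often act as repressors. Pogz encodes a zinc finger protein that binds heterochromatin protein 1.

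Pogz was lower in both mutants. Levels are in CPM, a gene's counts scaled to its library's total with TMM factors (trimmed mean of M values). In the hippocampus its mean was 90.9 ± 1.24 CPM (SD, n = 6) in the control group, 76.4 ± 2.27 (n = 6) with 1 allele lost and 61.7 ± 3.55 (n = 5) with both lost. The cerebellar means were 99.6 ± 15.2, 77.7 ± 5.78 and 65.8 ± 7.34 CPM (n = 6 each), in the same order. Counts cover the whole gene (chromosome 3, 94837567 to 94883567), so reads from exons outside the deletion remain in them. Libraries held 17609321 to 45544188 counts in the hippocampus and 21421850 to 32544929 in the cerebellum. The hippocampal cKO-/- library of Sample_1160 had a median correlation of 0.8748 with the other hippocampal libraries, whose own values were 0.9757 to 0.9899, and Prox1, a marker of dentate granule cells, at 10.1 CPM against 59.5 to 72.3 in the other cKO-/- libraries. Its summed level of 7 hippocampal markers, Prox1 among them, was 994 CPM, above the 773 to 841 CPM of the other cKO-/- libraries. This library was left out of the hippocampal fits, and values with it are given beside those without it. The summed level of 8 cerebellar markers was 5249 CPM or more in every cerebellar library and 556 CPM or less in every hippocampal one. The hippocampal library of control Sample_1129 had the highest of these hippocampal sums. It also held 4937 CPM of 8 choroid plexus markers, which were between 18.5 and 5030 CPM across hippocampal and between 20.4 and 3199 CPM across cerebellar libraries. All 6 meningeal and fibroblast markers were detected, with summed levels of 36.3 to 109 CPM in control and 65.6 to 177 CPM in cKO-/- hippocampus, and of 102 to 134 and 114 to 228 CPM in the cerebellum. In bulk tissue, fewer cells of a type and less RNA per cell cannot be told apart.

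The promoter windows of both Dach genes are shown because Dach2 and hippocampal Dach1 differed most with genotype among the network genes, in opposite directions. Gene-level counts do not tell from which start site reads came, and a transcript that begins elsewhere in the gene is not covered by these windows. The paper reports, from read positions, that the raised Dach2 transcript begins at an internal exon. Each window is 300 bases around an annotated start site, from RefSeq on GRCm38.p6, written 5′ to 3′ on the gene's strand with CpG dinucleotides in capitals. Dach2 lies on chromosome X (GRCm38, 113297510 to 113836386, plus strand) and has 2 windows, at chrX:113297260-113297559 and chrX:113298006-113298305. Dach1 lies on chromosome 14 (97786846 to 98169765, minus strand) with a window at chr14:98169716-98170015.
Dach2 window 1: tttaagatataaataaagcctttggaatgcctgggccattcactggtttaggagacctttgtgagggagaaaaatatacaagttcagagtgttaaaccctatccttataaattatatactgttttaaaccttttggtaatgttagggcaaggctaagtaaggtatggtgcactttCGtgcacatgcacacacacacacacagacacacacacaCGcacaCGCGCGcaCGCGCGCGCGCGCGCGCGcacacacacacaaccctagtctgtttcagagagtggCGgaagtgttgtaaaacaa
Dach2 window 2: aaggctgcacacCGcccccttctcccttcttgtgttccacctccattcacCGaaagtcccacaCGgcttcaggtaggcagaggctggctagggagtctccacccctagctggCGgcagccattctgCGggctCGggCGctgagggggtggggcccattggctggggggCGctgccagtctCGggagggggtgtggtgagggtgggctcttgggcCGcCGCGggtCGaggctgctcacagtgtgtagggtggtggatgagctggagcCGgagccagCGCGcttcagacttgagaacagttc
Dach1 window: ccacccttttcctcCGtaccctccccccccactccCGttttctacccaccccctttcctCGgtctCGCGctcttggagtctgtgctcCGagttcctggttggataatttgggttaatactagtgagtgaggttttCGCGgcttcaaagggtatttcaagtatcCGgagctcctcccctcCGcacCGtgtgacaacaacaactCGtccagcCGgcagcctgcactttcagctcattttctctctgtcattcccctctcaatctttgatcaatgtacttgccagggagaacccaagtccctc
The Dach2 windows held 15 and 16 CpG and the Dach1 window 13, against a median of 7 over 32851 windows of the same length. Such windows with fewer CpG than these made up 62.1% of all for 13 CpG, 65.4% for 15 and 67.0% for 16. Most CpG of Dach2 window 1 lie in a single repeat run of CA and CG. Its GC content was 45.3% and that of window 2 was 66.3%, against a median of 52.7% over all windows. Of the network genes 7 had a window in this set (Dach1, Dach2, Eya3, Eya4, Six3, Six4 and Six5), and their 10 windows held between 13 and 36 CpG.

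The other network genes lie on different chromosomes, and positions are on GRCm38. Eya1 is on chromosome 1 (14168958 to 14310199), Eya2 on chromosome 2 (165595028 to 165771727), Eya3 on chromosome 4 (132639046 to 132724765) and Eya4 on chromosome 10 (23104168 to 23349903). Six3 is on chromosome 17 (85620834 to 85626191), Six4 on chromosome 12 (73100259 to 73113245) and Six5 on chromosome 7 (19094544 to 19098345). No listed gene shared exon bases with any of the 9.

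Dach2 encodes a mammalian dachshund protein. In control hippocampus it was low, at 20 to 61 counts per library, with a lowest value of 0.593, a median of 0.757 and a highest of 1.40 CPM. In cKO+/- hippocampus it ranged from 3.34 to 4.53 CPM with a median of 3.84. The 5 cKO-/- libraries had 16.9 (Sample_936), 18.1 (Sample_1219), 22.4 (Sample_1385), 22.9 (Sample_1379) and 25.8 CPM (Sample_1371). The 3 genotypes did not overlap: every cKO+/- value was above every control value and below every cKO-/- value. Dach2 is the gene whose change chose the set, and the share of all genes that separate all 3 genotypes was not counted. For 1.53% of all genes every cKO-/- library lay above every control in this tissue. The group means were 0.842 ± 0.303 (SD, n = 6), 3.88 ± 0.413 (n = 6) and 21.2 ± 3.67 CPM (n = 5), so that the mutant means were 4.6 and 25.17 times the control mean. With Sample_1160, at 19.1 CPM, the cKO-/- mean was 20.8 ± 3.40 (n = 6).

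Cerebellar Dach2 followed the same order from a higher starting level. Control values had a lowest of 1.06, a median of 1.94 and a highest of 2.71 CPM, those of cKO+/- mice 3.93, 8.38 and 8.62 CPM, and those of cKO-/- mice 18.3, 27.2 and 31.2 CPM. Again no value of 1 genotype fell within the range of another. For 2.67% of all genes every cKO-/- library lay above every control in the cerebellum. The means were 1.95 ± 0.626, 7.48 ± 1.83 and 25.6 ± 5.81 CPM (SD, n = 6 each), with mutant means 3.841 and 13.13 times the control mean. The cKO+/- Sample_1120 was the lowest of its group at 3.93 CPM, and the next was at 7.07.

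**Figure D1:**
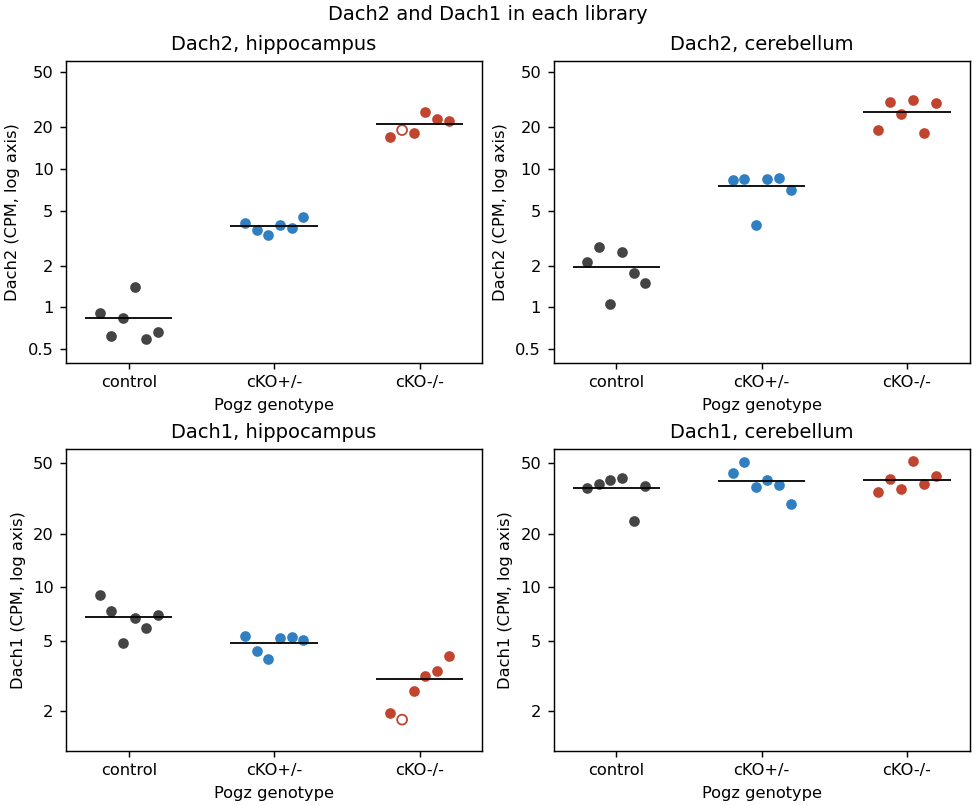
Dach2 (top) and Dach1 (bottom) in CPM on a log axis for hippocampus (left) and cerebellum (right), by Pogz genotype. Each point is 1 library, lines are group means, and the open circle is hippocampal Sample_1160, which is not in its group's mean. Dach2 separates the 3 genotypes in both tissues, and Dach1 is lower in cKO-/- hippocampus, where 2.61 to 4.09 CPM in the 4 upper filled points lie under the lowest control at 4.84, while its cerebellar ranges overlap.

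The change per Pogz allele lost, on the log2 scale, was 2.34 (SE 0.085) for Dach2 in the hippocampus and 1.85 (SE 0.11) in the cerebellum. Of the 8 network genes tested, Six3 being under the count filter in both tissues, 2 passed an FDR of 0.05 in the hippocampus (Dach2 higher, Dach1 lower), where 4.44% of all genes did (2.09% higher, 2.35% lower), and 1 in the cerebellum (Dach2 higher), where 13.7% did (7.11% higher). These counts rest on the contrast that chose the set. Separate fits gave 2.20 (SE 0.17) for cKO+/- against control and 4.66 (SE 0.18) for cKO-/- against control in the hippocampus, and 1.94 (SE 0.23) and 3.71 (SE 0.24) in the cerebellum. The median change per allele was 0.0097 over the 8 network genes against 0.0017 over all genes in the hippocampus, and 0.068 against 0.00087 in the cerebellum.

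The step from control to cKO+/- and the step from cKO+/- to cKO-/- were compared by the departure of cKO+/- from the midpoint of the other genotypes on the log2 scale. For Dach2 this departure was -0.13 (SE 0.14, adjusted p = 0.723) in the hippocampus and 0.082 (SE 0.18, adjusted p = 1) in the cerebellum, edgeR's quasi-likelihood test. No network gene departed from the midpoint in either tissue, none had an unadjusted p under 0.05, and DESeq2 called 12 genes of all in each tissue. Over all genes the edgeR test called 0 in the hippocampus (0%), with 1425 at an unadjusted p under 0.05, and 3 in the cerebellum (0.0214%). Eya2, a co-activator phosphatase, had the widest hippocampal departure of the network at 0.41 (SE 0.20, adjusted p = 0.507).

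The mice numbered from Sample_1120 to Sample_1219 included every control, while 3 cKO+/- and 4 cKO-/- mice had numbers outside this range. Within it the hippocampal fit had 10 libraries, of which 1 was cKO-/- (Sample_1219), and the cerebellar fit had 11, of which 2 were cKO-/-, so the lone library is assumed to vary like the other groups. The change of Dach2 per allele lost was then 2.25 (SE 0.13) in the hippocampus and 1.91 (SE 0.14) in the cerebellum. Leaving out 1 library at a time gave values from 2.28 to 2.43 in the hippocampus and from 1.79 to 1.90 in the cerebellum. The meningeal marker sums had higher medians in cKO-/- than in control tissue, at 139 against 65.8 CPM in the hippocampus and 209 against 109 CPM in the cerebellum, and their part in Dach2 was not tested.

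The genes nearest to Dach2 on chromosome X, among those past the count filter in either tissue, did not pass the test. Chm, which encodes an escort protein for Rab prenylation, was the nearest such gene on the left at 112 kb. It had a difference of 0.11 (SE 0.048, adjusted p = 0.218, edgeR) per allele lost in the hippocampus and 0.093 (SE 0.041, adjusted p = 0.131) in the cerebellum. Klhl4, a kelch-like gene 637.9 kb to the right, had -0.065 (SE 0.053, adjusted p = 0.510) and 0.081 (SE 0.051, adjusted p = 0.292). None of the Dach2 43-base transcript windows, the read length, occurred in a protein-coding transcript of another gene. Non-coding transcripts and the rest of the genome were not searched.

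Dach1, the paralogue of Dach2, was lower in cKO-/- than in control hippocampus, while its cerebellar ranges overlapped. Hippocampal controls had a lowest value of 4.84, a median of 6.86 and a highest of 9.09 CPM, and cKO+/- mice 3.94, 5.11 and 5.34 CPM. The cKO-/- libraries had 1.97 (Sample_936), 2.61 (Sample_1219), 3.15 (Sample_1371), 3.39 (Sample_1379) and 4.09 CPM (Sample_1385). All cKO-/- values were below all control values, and the cKO+/- range overlapped both. The means were 6.82 ± 1.43 (SD, n = 6), 4.86 ± 0.562 (n = 6) and 3.04 ± 0.802 CPM (n = 5), on counts of 59 to 326 per library, and with Sample_1160 the last was 2.83 ± 0.879 (n = 6). The change per allele lost was -0.58 (SE 0.087). Non-overlap of cKO-/- and control libraries was found for 3.65% of all genes in the hippocampus (1.53% higher, as Dach2, and 2.12% lower, as Dach1) and for 4.58% in the cerebellum (2.67% higher, as Dach2).

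The highest control, Sample_1129, was the hippocampal library with the highest cerebellar marker sum, and it held Pcp2, a Purkinje cell gene, at 19.2 CPM against 0.894 CPM or less in the other hippocampal libraries. The part of cerebellar RNA in its Dach1 value was not tested. Without it the hippocampal change was -0.53 (SE 0.087) per allele lost. With the 10 hippocampal libraries numbered from Sample_1120 to Sample_1219, of which 1 was cKO-/-, the change was -0.62 (SE 0.14) and Dach1 was not among the genes called. Leaving out 1 library at a time gave -0.63 to -0.52.

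Cerebellar Dach1 showed no such order. Controls had a lowest value of 23.7, a median of 37.6 and a highest of 41.5 CPM, cKO+/- mice 29.5, 39.1 and 50.7 CPM, and cKO-/- mice 34.5, 39.3 and 51.1 CPM. The lowest control, Sample_1190, stood apart from the next at 36.2 CPM. The means were 36.2 ± 6.41, 39.9 ± 7.13 and 40.5 ± 6.00 CPM (n = 6 each), a change of 0.083 (SE 0.064) per allele lost. The allele effect on Dach1 differed between tissues by -0.67 (SE 0.11, hippocampus minus cerebellum), and 1.49% of all genes passed that comparison. Leaving out 1 animal at a time gave -0.73 to -0.61.

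For Dach2 the difference in allele effect between tissues was 0.48 (SE 0.15), and 0.53 (SE 0.12) with animal as a block. Network genes called in this comparison were 1 without the block (Dach1) and 2 with it (Dach1 and Dach2). Of all genes 1.49% passed without the block, and more passed with it. These counts rest on the allele effect that chose the set. With the level divided by the length of all annotated exons, Dach2 made up 8.13% ± 2.95 of the summed Dach1 and Dach2 level in control hippocampus, 35.9% ± 1.95 in cKO+/- and 83.2% ± 2.55 in cKO-/- mice (n = 6, 6 and 5). In the cerebellum its share was 3.72% ± 1.21, 11.7% ± 2.73 and 30.5% ± 3.50 (n = 6 each). These shares rest on the full annotated length. From read positions the paper reports that a shorter Dach2 transcript, beginning at an internal exon, is raised in Pogz-deficient mice. The share of Dach2 would be larger for reads from such a transcript, and counts per gene cannot show how many came from it.

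**Figure D2:**
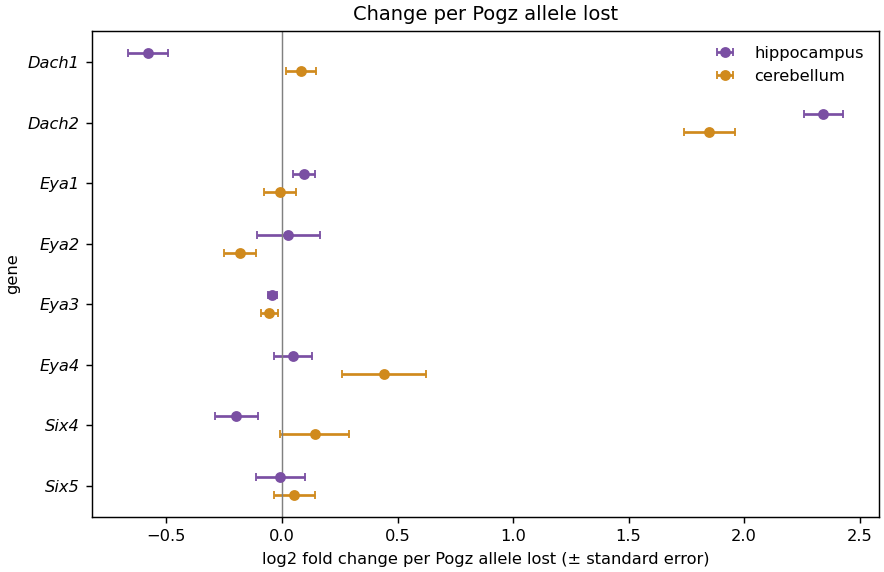
Log2 fold change per Pogz allele lost for the 8 tested network genes, with bars of 1 standard error, in hippocampus (17 libraries) and cerebellum (18 libraries). Dach2 lies at 2.34 and 1.85, Dach1 at -0.58 in the hippocampus, and the other genes between -0.20 and 0.44.

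No Eya co-activator was among the genes called for the change with allele number in either tissue. Eya3, the most abundant of the network, had 39.9 ± 1.42, 38.5 ± 1.003 and 37.8 ± 1.45 CPM in control, cKO+/- and cKO-/- hippocampus, and 46.3 ± 3.99, 46.2 ± 2.30 and 42.9 ± 4.72 CPM in the cerebellum. Its change per allele lost was -0.042 (SE 0.020) and -0.056 (SE 0.037). In Sample_1160 it was at 22.5 CPM. Eya1, which is needed for ear and kidney development, had 17.5 ± 1.53 CPM in control, 17.9 ± 2.20 in cKO+/- and 20.03 ± 2.61 in cKO-/- hippocampus, a change of 0.094 (SE 0.047). In the cerebellum it had 7.40 ± 0.844, 7.89 ± 1.53 and 7.30 ± 1.21 CPM, a change of -0.010 (SE 0.069). The hippocampal cKO+/- Sample_1433 was the highest of its group at 22.1 CPM.

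Eya2 in cerebellum had 7.79 ± 0.955, 7.09 ± 1.14 and 6.00 ± 1.29 CPM by genotype, a change of -0.18 (SE 0.070), with overlapping ranges of 6.10 to 8.59 and 4.53 to 7.40 CPM in controls and cKO-/- mice. In the hippocampus it had 1.91 ± 0.347, 2.54 ± 0.741 and 1.90 ± 0.748 CPM, a change of 0.027 (SE 0.14). Eya4, which is linked to hearing and heart muscle, was detected at only 10 to 47 counts per cerebellar library, with means of 0.587 ± 0.321, 0.779 ± 0.417 and 1.07 ± 0.396 CPM. Its cerebellar change of 0.44 (SE 0.18) became 0.61 (SE 0.17), and Eya4 was called, without Sample_1129, whose control value of 1.21 CPM was the highest of the 6. The summed meningeal markers of cKO-/- cerebellum were up to 228 CPM against 134 or less in controls, and their part in the Eya4 values was not tested. In the hippocampus Eya4 had 3.79 ± 0.614, 3.67 ± 0.696 and 4.08 ± 1.001 CPM, a change of 0.046 (SE 0.082), and Sample_1160 stood at 0.334 CPM.

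The homeodomain genes Six4 and Six5 were low in both tissues. Six4 had 1.45 ± 0.341, 1.22 ± 0.242 and 1.07 ± 0.358 CPM in control, cKO+/- and cKO-/- hippocampus, a change of -0.20 (SE 0.093), and 2.04 ± 0.547, 2.54 ± 0.537 and 2.57 ± 1.76 CPM in the cerebellum, a change of 0.14 (SE 0.15). The cerebellar cKO-/- Sample_936 had 6.05 CPM of Six4 against 2.56 or less in the other cKO-/- libraries, and without that animal the cerebellar change was -0.043. This library also held 3056 CPM of choroid plexus markers and 51.7 CPM of midbrain and brainstem markers, the highest sum of the latter in the cerebellum, and their part was not tested. Six5, which lies 724 bases beyond the end of Dmpk, the kinase gene of myotonic dystrophy, had 3.15 ± 1.35, 3.38 ± 0.4995 and 2.91 ± 0.797 CPM in the hippocampus and 3.15 ± 0.361, 3.36 ± 1.15 and 3.39 ± 0.546 CPM in the cerebellum, changes of -0.0078 (SE 0.11) and 0.053 (SE 0.089) per allele lost.

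One window of Six4 held the MEF3 motif, TCAGGTTTC, a binding sequence of sine oculis proteins. The motif was searched on both strands and occurred in 0.429% of all 32851 windows, and in no other window of the network genes. The Six4 window lies at chr12:73113196-73113495 on the minus strand and is shown with the first 7 bases of the motif, read on the opposite strand, in capitals.
Six4 window 1: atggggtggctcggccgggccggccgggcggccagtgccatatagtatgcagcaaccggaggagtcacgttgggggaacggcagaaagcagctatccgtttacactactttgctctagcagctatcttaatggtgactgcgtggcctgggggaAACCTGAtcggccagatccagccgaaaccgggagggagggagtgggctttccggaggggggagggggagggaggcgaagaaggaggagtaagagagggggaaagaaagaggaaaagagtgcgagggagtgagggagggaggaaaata
The match describes letters in this window only.

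Six3, a homeobox gene of the forebrain and eye, was at 0 counts in 12 of the 18 cerebellar libraries, a count that at these depths allows up to 0.139 CPM by counting error alone. Among controls only Sample_1192 had any, with 2 counts, under the floor of 3 counts used here. The cKO+/- Sample_933 and Sample_1433 had 33 and 258 counts, and the cKO-/- Sample_1371, Sample_1379 and Sample_1385 had 6, 88 and 319 counts. In CPM the 3 highest were 10.8 (Sample_1385), 7.90 (Sample_1433) and 2.99 (Sample_1379). The 4 libraries above 10 counts were from mutants whose numbers lay outside Sample_1120 to Sample_1219. Six3os1, transcribed from the opposite strand 2438 bases away, had 126, 137, 35 and 21 counts in Sample_1385, Sample_1433, Sample_1379 and Sample_933 and 0 in control cerebellum, and use of strand in counting is not given in the sources used here. The hippocampus held 1 to 80 counts in all but 1 library, with 2.23 CPM in control Sample_1129 and 2.21 CPM in cKO-/- Sample_1385, the hippocampal libraries with 4937 and 5030 CPM of choroid plexus markers. In the cerebellum these markers stood at 2379 and 3199 CPM in cKO+/- Sample_933 and Sample_1433 but at 79.5 and 35.1 CPM in cKO-/- Sample_1379 and Sample_1385, and at 3056 CPM in Sample_936, which had no Six3 count. The summed level of 5 striatal markers was 16.9 CPM in cerebellar Sample_1433 and 14.0 CPM in Sample_1385, against 10.2 CPM or less in the other cerebellar libraries. Sample_1379 and Sample_933, at 9.76 and 9.61 CPM, were among those others. The part of other tissue in Six3 was not tested.

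**Figure D3:**
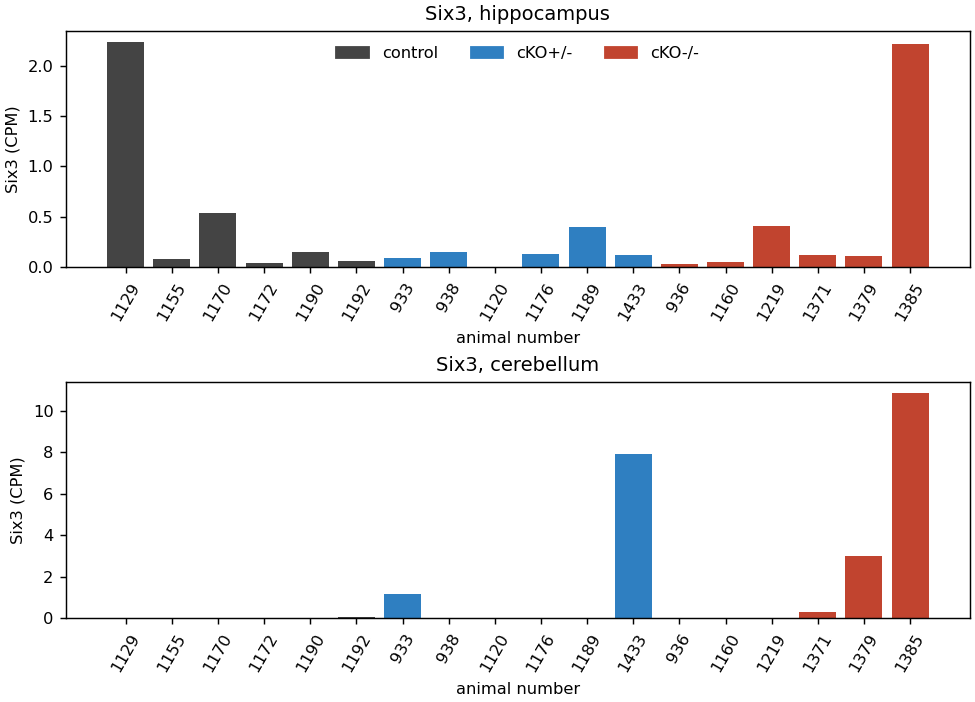
Six3 in CPM for each library, by animal number, with the genotype as colour (hippocampus above, cerebellum below, bars from 0). In the cerebellum Six3 is at 0 in 12 libraries and reaches 10.8 CPM in cKO-/- Sample_1385, and in the hippocampus the highest are control Sample_1129 and cKO-/- Sample_1385.

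Levels in control mice were compared between tissues by a fit with sex and tissue and no term for animal. Both tissues came from the same animals, so the adjusted p here leave the pairing aside, while the counts of animals use it. Of the 8 genes tested, 5 passed an FDR of 0.05, 2 higher in hippocampus and 3 lower, where 71.9% of all genes passed (35.2% higher, 36.7% lower). Eya4 and Eya1 were higher in hippocampus in 6 of 6 animals, by 2.80 (SE 0.26, adjusted p = 3.23e-07, edgeR) and 1.33 (SE 0.091, adjusted p = 1.56e-08) on the log2 scale. Dach1, Eya2 and Dach2 were lower in hippocampus in 6 of 6 animals, by -2.32 (SE 0.16, adjusted p = 1.43e-08, edgeR), -1.94 (SE 0.14, adjusted p = 3.31e-08) and -1.14 (SE 0.26, adjusted p = 0.0013). Six4 (-0.42, SE 0.18, adjusted p = 0.0587), Eya3 (-0.12, SE 0.064, adjusted p = 0.0988) and Six5 (0.048, SE 0.21, adjusted p = 0.848) did not pass. Eya3 passed without Sample_1190 (-0.17, adjusted p = 0.0283, edgeR) and Six4 without Sample_1172 (-0.52, adjusted p = 0.0182). Without Sample_1129, whose hippocampal library held cerebellar markers, the difference of Dach1 was -2.41. That of Eya4 was then 3.17. Cerebellar Eya4 in this mouse was 1.18 CPM against 0.335 to 0.551 in the other controls. Its hippocampal Eya4 was 3.26 CPM against 3.36 to 4.78.

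**Figure D4:**
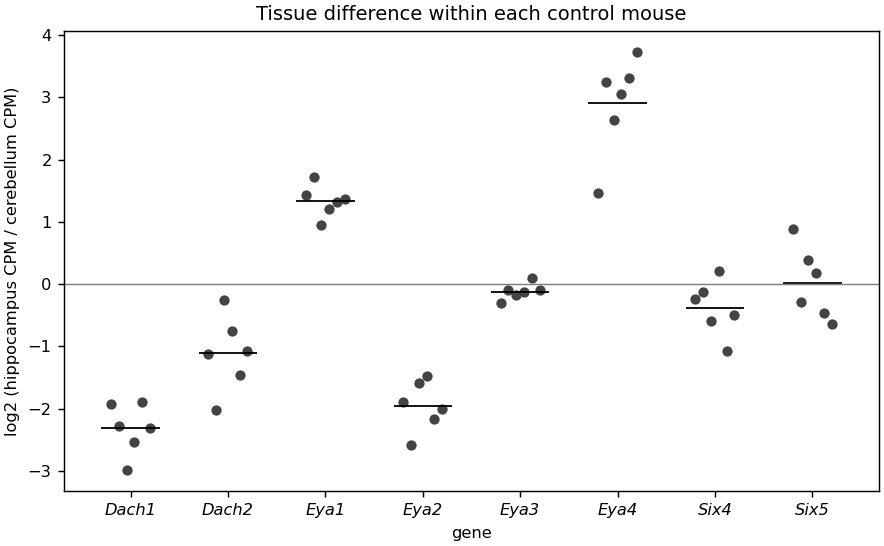
Log2 ratio of hippocampal to cerebellar CPM within each of the 6 control mice (points) and its mean (line) for the 8 tested network genes. Eya1 and Eya4 lie above 0 and Dach1, Dach2 and Eya2 below it in every mouse, and the points of Eya3, Six4 and Six5 fall on both sides.

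Per kb of annotated exons, Eya3 was the highest of the network in both control tissues, at 7.68 ± 0.272 CPM per kb in the hippocampus and 8.91 ± 0.768 in the cerebellum (n = 6 each). Eya1 was second in the hippocampus at 4.02 ± 0.352 and Dach1 second in the cerebellum at 6.64 ± 1.18, and these ranges were separate from their neighbours. Below Eya1 in the hippocampus the order was Dach1, Six5, Eya4 and Eya2, between 1.25 and 0.692 CPM per kb, and the ranges of these neighbours overlapped. By mean, Dach2 was last in the hippocampus at 0.108 ± 0.0390 CPM per kb, and its range of 0.0763 to 0.181 lay within that of Six3. The Six3 mean of 0.141 rested on Sample_1129 at 0.606, and the other controls had 0.0125 to 0.147 CPM per kb of Six3. In the cerebellum Eya2 (2.82), Eya1 (1.70) and Six5 (1.10) came next with separate ranges, then Six4, Dach2 and Eya4 (0.366, 0.251 and 0.143), which overlapped their neighbours, and Six3 (0.0031).

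Males and females did not differ past the threshold for any network gene. Dach2, on chromosome X, differed by -0.18 (male minus female, SE 0.14, adjusted p = 0.551, edgeR) in the hippocampus and by 0.063 (SE 0.17, adjusted p = 1) in cerebellar libraries. Of all genes 0.907% passed for sex in hippocampal libraries and 0.0499% in cerebellar ones. The hippocampal network genes with the largest differences were Six5 (-0.39, adjusted p = 0.262) and Six4 (-0.35, adjusted p = 0.252).

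A list of 31 further genes of the same network was examined, and all were in the tables. They comprised 3 further sine oculis genes, 4 Ski family genes, 5 Pax genes, 10 co-regulators and 9 targets. Of these, 20 passed the count filter in the hippocampus and 1 of them changed with allele number, where 4.44% of all genes did, and 25 passed in the cerebellum and 2 changed, where 13.7% did. Ccnd1, which encodes cyclin D1, fell by 0.14 per allele lost in the hippocampus (SE 0.038, adjusted p = 0.0461, edgeR), and was -0.091 (SE 0.050, adjusted p = 0.227) in the cerebellum. Leaving out 1 library took the Ccnd1 call away in 12 of 17 fits. Shh, a secreted morphogen made by Purkinje cells, rose by 0.26 (SE 0.066, adjusted p = 0.0166) in the cerebellum, from 6.91 ± 0.986 through 7.90 ± 1.23 to 9.93 ± 2.07 CPM, with the call kept in 17 of 18 fits that left out 1 animal and lost without Sample_1385 (0.22). Among animals numbered Sample_1120 to Sample_1219 the values were -0.057 for Ccnd1 in the hippocampus and 0.14 for Shh in the cerebellum, neither past the threshold.

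The genes whose pattern was most like that of Dach2, by the lower of 2 Pearson correlations over the 17 hippocampal and the 18 cerebellar libraries among 13586 genes, were Rnf17 (0.944), Akr1c13 (0.929), Dmp1 (0.927), Gm4371 (0.911) and Snrpn (0.899). Rnf17 is a germ cell Tudor domain gene, Dmp1 a matrix protein of dentin and bone, and Snrpn an imprinted gene. These libraries share genotype groups, so the correlations describe likeness and carry no test. Among the genes most like Dach1 were Fam21 (0.791), Ralgapa2 (0.708), Pcdhb6 (0.698) and Clmn (0.691).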

How the data were processed

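RNA was measured in hippocampus and cerebellum of the same 18 mice, 6 per genotype. The deposited values are whole-number counts per gene, not normalized: the authors made poly(A) libraries, sequenced them as paired ends, and aligned and counted with STAR 250a, and the submitters' processing notes name mm9. The coordinates in the deposited tables match GRCm38. Whether counting used strand or multi-mapping reads is not given in the sources used here. No column was left unused. Groups, sex and animal numbers came from the labels.

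Each tissue was tested separately over genes that exceeded 1 CPM in 6 or more libraries, with edgeR 4.0.16 (R 4.3.3), TMM factors and the quasi-likelihood F-test (legacy form), with sex and the number of alleles lost, and Benjamini-Hochberg adjustment over all genes at 0.05. CPM values use the TMM factors, and 14339 genes were tested for hippocampus and 14027 for cerebellum. The hippocampal fit used 17 libraries. The study's reporting summary says that 1 outlier RNA sample was excluded without naming it, and Sample_1160 was chosen from earlier results of these data. Tissue differences used a joint fit over both tables, normalized together. The 2 tissues came from the same animals by the animal numbers in the labels. Deviations of the 17 same-animal pairs correlated with a median of 0.217 (-0.148 to 0.435), against -0.0706 for different animals, and the fit with animal as a block was an alternative. The floor for a count of 0 was 3 counts, and limits cover counting error only.

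Alternatives were DESeq2 1.42.0, relative log expression factors, no filter, the bias-adjusted test, no sex term, all libraries, a covariate for animal numbers outside Sample_1120 to Sample_1219 and leaving out each library. Restriction to animals numbered Sample_1120 to Sample_1219 was chosen after seeing the data. On simulated counts, the hippocampal fit over 14339 genes recovered 97 of 100 changes of 0.5 (log2) and 99 of 100 of 1, and the cerebellar fit over 14027 genes 93 and 97 of 100. The fit of the control tissue difference over 14224 genes recovered fewer, 59 and 92 of 100. Unchanged genes called were 14, 11 and 9 in these fits, in the same order. The members, the network list, the markers and the rule for named genes (all members, network genes past the threshold in either tissue, neighbours of Dach2 and the 5 genes most like each Dach gene) were chosen with earlier results of these data known. Of the genes this rule names, 2 are not reported here. P-values of the fits within a tissue measure the spread between these animals. Joint fits without a term for animal treat libraries of the same mouse as independent.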

Additional observations from a re-analysis of the deposited data

Results flagged for a closer look

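Single libraries stood far from the rest of their group in 12 cases among 54 groups, by the gap to the nearest library relative to the group's range, a criterion that chance meets in about 1 of 20 groups. Of these, 5 were Six3: control hippocampus Sample_1129 (2.23 CPM), cKO-/- hippocampus Sample_1385 (2.21 CPM), control cerebellum Sample_1192 (0.0687 CPM), cKO+/- cerebellum Sample_1433 (7.90 CPM) and cKO-/- cerebellum Sample_1385 (10.8 CPM). Control Sample_1129 also had the highest cerebellar Eya4 (1.21 CPM) and hippocampal Six5 (5.71 CPM). Mouse Sample_936 had the highest cKO-/- cerebellar Six4 (6.05 CPM), and Sample_1433 the highest cKO+/- hippocampal Eya1 (22.1 CPM). Lowest values were Dach1 in control cerebellum Sample_1190 (23.7 CPM), Dach2 in cKO+/- cerebellum Sample_1120 (3.93 CPM) and Eya3 in cKO-/- hippocampus Sample_1160 (22.5 CPM).

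The change of Dach1 per Pogz allele lost differed between tissues by the interaction term, at -0.67 on the log2 scale (SE 0.11), hippocampus minus cerebellum.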

How the results depend on the processing

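Members' calls for allele effects rest on the contrast that chose the set and are given as counts. Over all genes the hippocampal allele effect called 636, and 1056 with DESeq2, 246 with all 18 libraries, 68 with the number covariate and 27 with Sample_1120 to Sample_1219 only (10 libraries, 1 of them cKO-/-), where 1 network member was called in place of 2. The further network genes called there went from 1 to 0 with all 18 libraries, the covariate or the restricted animals. The cerebellar allele effect called 1916, and 308 with the covariate and 277 with the restricted animals, and the further network genes went from 2 to 1 with no filter and to 0 with those settings. Fits leaving out 1 library gave 286 (without Sample_1371) to 937 (without Sample_936) genes in the hippocampus, 935 (without Sample_1385) to 2572 (without Sample_1160) in the cerebellum, 1 to 2 members in the cerebellum, and 0 to 1 and 0 to 3 further network genes. The allele effect between tissues called 203, and 338 with animal as a block, which took members from 1 to 2 by adding Dach2 and changed no other member's call, 337 with DESeq2, and 85 (without Sample_1190) to 363 (without Sample_1160) without 1 animal. Sex called 130 genes in the hippocampus, and 625 with DESeq2, 6 with all 18 libraries, 322 with the restricted animals and 30 (without Sample_1192) to 212 (without Sample_1371) without 1 library, and 7 in the cerebellum, 17 with DESeq2. Departure from the midpoint called 0 in the hippocampus, 12 with DESeq2, 1 with no filter, 1 with no sex term and 0 to 1 without 1 library, and 3 in the cerebellum, 12 with DESeq2 and 6 with the covariate or the restricted animals. The cause of these changes was not tested.

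Values that turned direction were uncalled but not all small, and the cerebellar sex difference of Six4 was 0.35 in the main fit. Hippocampal departures became 0.043 (Eya3), 0.028 (Eya4) and 0.078 (Six4) with all 18 libraries, and 0.033 (Eya1) and -0.090 (Six5) with the restricted animals. With those animals cerebellar sex differences became -0.13 (Eya1) and -0.16 (Six4), and cerebellar departures -0.052 (Dach2) and -0.046 (Eya3). Without 1 library, ranges crossed 0 for hippocampal allele effects of Eya2 (-0.030 to 0.109), Eya4 (-0.035 to 0.095) and Six5 (-0.065 to 0.082), cerebellar allele effects of Eya1 (-0.036 to 0.026) and Six4 (-0.043 to 0.209), the allele effect between tissues of Eya3 (-0.019 to 0.024) and Six5 (-0.12 to 0.024), hippocampal departures of Eya3 (-0.025 to 0.0031) and Six4 (-0.13 to 0.062), cerebellar departures of Dach1 (-0.0088 to 0.12), Eya2 (-0.025 to 0.098), Eya4 (-0.23 to 0.13) and Six5 (-0.15 to 0.15), cerebellar sex differences of Dach2 (-0.019 to 0.13), Eya1 (-0.0044 to 0.092) and Eya4 (-0.16 to 0.17), and the tissue difference of Six5 (-0.15 to 0.17). Counts of 10 to 47 limit cerebellar Eya4, and counts of 0 limit Six3.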
